A study of Rattus norvegicus with 12 samples.

Results

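Hedgehog signalling sets ventral identity in the embryonic forebrain, and 10 genes of the pathway were followed here in the ganglionic eminences of BACHD and wild-type rat embryos. The genes were Shh, Ptch1, Smo, Gli1, Gli2, Gli3, Sufu, Gas1, Hhip and Boc. A gene was taken as measured where the platform annotation gave a probe set exactly 1 gene symbol and that symbol was one of the 10, and the probe set with the highest mean would stand for a gene with several. By this rule 6 of the 10 were measured (Shh, Smo, Sufu, Gli1, Gli2 and Gli3), each by 1 probe set, among 14506 genes and 29214 probe sets in all. The expression of Ptch1, Gas1, Hhip and Boc is not analysed here.

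The tissue was the whole ganglionic eminence, medial and lateral parts together, of rat embryos at embryonic day 14, the source of the striatum and of many cortical interneurons. Homozygous BACHD embryos (n = 6) carried a bacterial artificial chromosome with the whole human gene for mutant huntingtin, whose CAG tract held 96 repeats, and wild-type embryos (n = 6) did not. The embryos came from 3 transgenic dams dissected on the same day, and which dam and which sex each had is not known here. Each array (Affymetrix rat Gene ST) held the RNA of 1 embryo. The stated aim of the study was to look for early transcriptional changes in the transgenic embryos.

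Shh is a secreted ligand. It binds the receptor Ptch1, which otherwise silences Smo, a membrane protein that acts at the primary cilium. Active Smo relieves the hold of protein kinase A and Sufu on the Gli transcription factors, so that Gli2 and Gli3 are no longer cut into repressors, and Gli1 is switched on as a target gene. Boc and Gas1 help Ptch1 to bind the ligand, and Hhip traps it. In the ventral forebrain Shh induces Nkx2-1, the transcription factor that defines the medial eminence, and in mice Gli3 repressor activity limits ventral fates dorsally.

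Promoter windows of 7 of the 10 genes were at hand from RefSeq (rat assembly GRCr8, 250 bases before to 50 bases after the gene start), and the letters GACCACCCA, the core that Gli proteins bind, were searched on both strands. They were present in 1 of the 7, that of Ptch1, and in 129 of 33469 promoter windows of the genome (0.385%). The windows of Sufu, Smo, Boc, Gli2, Gli3 and Hhip did not hold these letters. A match is a description of the sequence and not a measured site. In the Ptch1 window the motif ran on the opposite strand, from base 79 to base 87. Both windows below are read 5′ to 3′, the first from chr17:1555321-1555620 on the plus strand, shown because it alone held the motif (in capitals), and the second from chr1:255198939-255199238 on the plus strand, shown because the Sufu results below turn on single embryos.
Ptch1: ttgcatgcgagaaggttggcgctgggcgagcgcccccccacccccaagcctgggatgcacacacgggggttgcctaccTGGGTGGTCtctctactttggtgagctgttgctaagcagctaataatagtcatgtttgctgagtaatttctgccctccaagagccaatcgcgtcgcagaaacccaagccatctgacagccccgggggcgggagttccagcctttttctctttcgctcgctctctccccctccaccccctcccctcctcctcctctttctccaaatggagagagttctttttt
Sufu: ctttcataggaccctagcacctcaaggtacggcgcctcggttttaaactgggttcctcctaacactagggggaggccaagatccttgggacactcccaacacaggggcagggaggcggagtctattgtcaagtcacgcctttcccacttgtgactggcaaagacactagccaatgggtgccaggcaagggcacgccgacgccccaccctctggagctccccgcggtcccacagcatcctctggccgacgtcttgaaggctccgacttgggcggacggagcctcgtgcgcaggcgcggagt

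The deposited values are log2 intensities, and a difference of 1 is a doubling. Array medians ran from 7.69 to 7.76 in homozygous and from 7.67 to 7.71 in wild-type arrays, and any pair of arrays had an r of at least 0.994 over the probe sets. Wild type 1 and 2 stood apart from the other arrays, with the lowest array weights in limma (0.487 and 0.392, against 0.744 to 1.69 in the other 10). They also had the lowest balance of medial over lateral eminence markers, the mean log2 level of 6 medial genes minus that of 8 lateral genes, at -0.35 in each. That balance was -0.23 to -0.11 in homozygous embryos and -0.26 to -0.21 in the other 4 wild-type embryos. Both lay above the other 4 wild-type embryos in 16.6% of all probe sets and below them in 19.8%. Among eminence markers both lay above in 6 of 8 lateral, 2 of 6 medial and 2 of 5 shared ones. Among markers of other cells the lists differed. Both lay above in 3 of 6 hypothalamic and other diencephalic markers (Sim1 and Otp among them) and 3 of 5 red blood cell markers. They did so in 3 of 8 microglia and macrophage markers (Tyrobp, C1qb and Ptprc) and 2 of 8 endothelial markers (Esam among them). The count was 2 of 7 for meninges and mesenchyme, 1 of 10 for choroid plexus and roof plate and 0 of 6 for pallium. Both lay below in 1 hypothalamic marker (Rax), 1 medial marker (Nkx2-1) and 2 markers of meninges and mesenchyme. For Tyrobp, wild type 1 and 2 had log2 levels of 8.38 and 8.27, against 7.73 to 7.93 in the other 4. The medial (6 of 8 measured), lateral (8 of 10 measured) and shared eminence markers (5 of 10 measured) all stood above the brightest of 53 olfactory receptor genes (mean 7.40), used as genes the tissue should not express. Of the choroid plexus and roof plate markers 8 of 10 did not, including Ttr. Nor did Ptprc, 1 of the 3 microglia and macrophage markers that were higher in wild type 1 and 2. The median level of the 53 olfactory receptor genes was 5.18. The olfactory receptor level named below is that of the brightest, and a gene said to be at it did not stand above it. In bulk tissue, fewer cells of a type and less RNA per cell cannot be told apart.

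No measured Hedgehog gene passed the test between genotypes. Of the 6, none had an adjusted p below 0.05 in limma, where 0.424% of all probe sets did, and none had an unadjusted p below 0.05, where 15.0% of all probe sets did. The adjusted p ran from 0.358 to 0.922. All 6 differences, homozygous minus wild type, were above 0, between 0.014 and 0.12 on the log2 scale, with Smo (-0.016) and Gli2 (-0.024) below 0 once arrays were centred on their medians. Of all probe sets 64.8% lay above 0. The median difference of the 6 was 0.053 and that of all probe sets 0.029. The 95% confidence intervals of the 6 differences together spanned folds from 0.929 to 1.18.

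**Figure D1:**
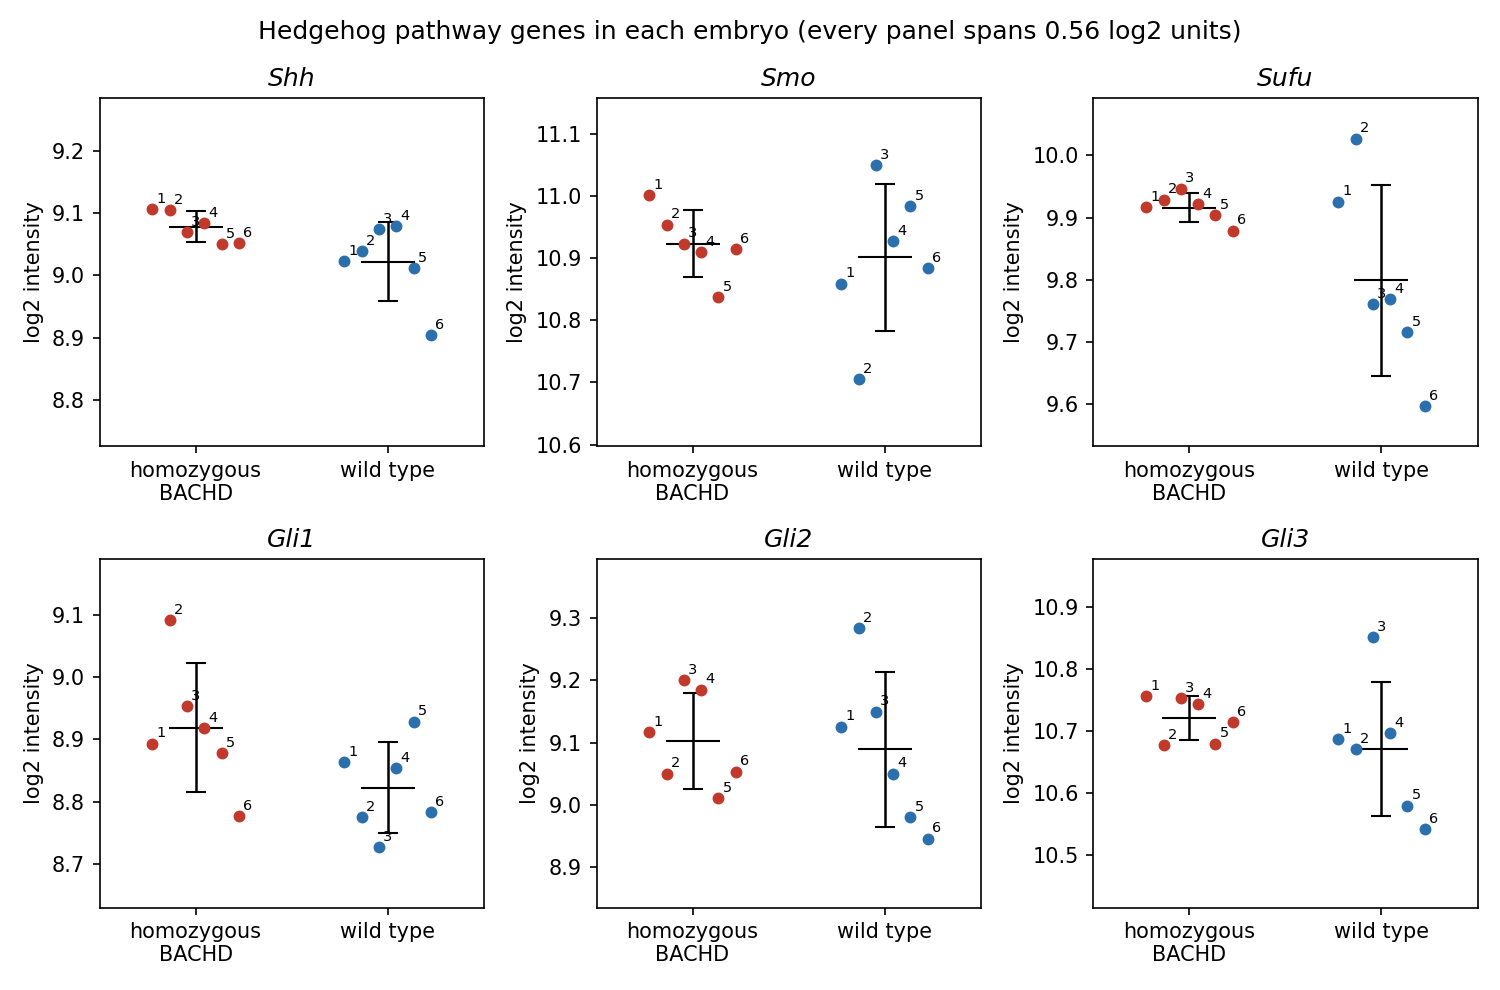
Log2 intensity of the 6 measured Hedgehog genes in each embryo, homozygous BACHD left and wild type right; points are embryos with their replicate number, the line is the group mean and the bar 1 SD (n = 6 per group). The groups overlap in every panel, and for Sufu the homozygous embryos lie between 9.88 and 9.95 while the wild-type embryos spread from 9.60 to 10.03.

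Shh, the ligand (probe set 10852676), stood above the olfactory receptor level in every embryo, as did the other 5 measured genes. Its log2 intensity had a lowest, median and highest value of 9.05, 9.08 and 9.11 in homozygous embryos, against 8.90, 9.03 and 9.08 in wild-type embryos. Every homozygous embryo lay above the wild-type median and 3 of 6 lay above every wild-type embryo, while wild type 6 was the lowest of all. The means were 9.08 ± 0.0248 in homozygous and 9.02 ± 0.0638 in wild-type embryos (SD, n = 6 each). The difference was 0.056 ± 0.034 (log2, SE; 1.04-fold, 95% interval 0.988 to 1.09) with an adjusted p of 0.452 in limma. It was 0.018 with arrays centred on their medians and 0.032 without wild type 6. The exact permutation test of this gene alone gave p = 0.0390 (2-sided, not adjusted, 924 assignments), while limma, which raises a small variance towards that of probe sets of similar brightness, gave an unadjusted p of 0.126.

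Smo, the membrane protein that passes the signal on (probe set 10854208), had 10.84, 10.92 and 11.00 as its lowest, median and highest log2 intensity in homozygous embryos, against 10.71, 10.91 and 11.05 in wild-type embryos. Both the lowest and the highest embryo were wild type, numbers 2 and 3, and the medians were nearly the same. The difference was 0.022 ± 0.049 (log2, SE; 1.02-fold, 95% interval 0.945 to 1.09; adjusted p = 0.847 in limma, and exact permutation p = 0.714). Its direction turned without wild type 1 and 2 (-0.038).

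Sufu, the cytoplasmic protein that holds Gli factors back (probe set 10715825), differed by 0.12 on the log2 scale, 0.020 more than Gli1, which is less than the SE of either. Without wild type 6, wild type 5 or homozygous 6 the Gli1 difference was the larger. The lowest, median and highest log2 intensity were 9.88, 9.92 and 9.95 in homozygous embryos, against 9.60, 9.77 and 10.03 in wild-type embryos. The homozygous embryos were close together, and the wild-type embryos fell on both sides of them: 4 lay below every homozygous embryo, wild type 1 (9.93) lay among them and wild type 2 (10.03) lay above them all. The SD was 0.0231 in homozygous and 0.154 in wild-type embryos (n = 6 each). With all 12 arrays the difference was 0.12 ± 0.058 (log2, SE; 1.08-fold, 95% interval 0.995 to 1.18; adjusted p = 0.358 in limma, exact permutation p = 0.0758), and it was 0.076 without wild type 6.

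Without wild type 1 and 2, Sufu passed. The homozygous embryos averaged 9.92 ± 0.0231 (SD, n = 6) and the other 4 wild-type embryos 9.71 ± 0.0791 (SD, n = 4), with no overlap, where 5.21% of all probe sets did not overlap in this subset. The difference was then 0.21 ± 0.035 (1.15-fold), with an adjusted p of 0.0140 in limma, where 1.99% of all probe sets passed, and Sufu was the 1 of the 6 genes to do so. The exact permutation p was 0.00476, the smallest that 6 against 4 can give. Wild type 1 and 2 were the only wild-type embryos not below every homozygous embryo for Sufu. Leaving them out thus fixed the lack of overlap and this permutation p in advance. The pair had been left out with earlier results of these arrays known, so this value is not independent evidence. With the medial over lateral marker balance as a covariate and all 12 arrays, the Sufu difference was 0.24 (adjusted p = 0.0760 in limma). Wild type 1 and 2 had the lowest balance (-0.35 in each), so this fit is not independent of leaving them out. The summed linear level of the medial markers was 7725 to 8350 in homozygous and 7449 to 7863 in wild-type embryos, and that of the lateral markers 16937 to 18260 in homozygous and 17044 to 18292 in wild-type embryos; beyond the covariate fit their part in the Sufu values was not tested.

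**Figure D2:**
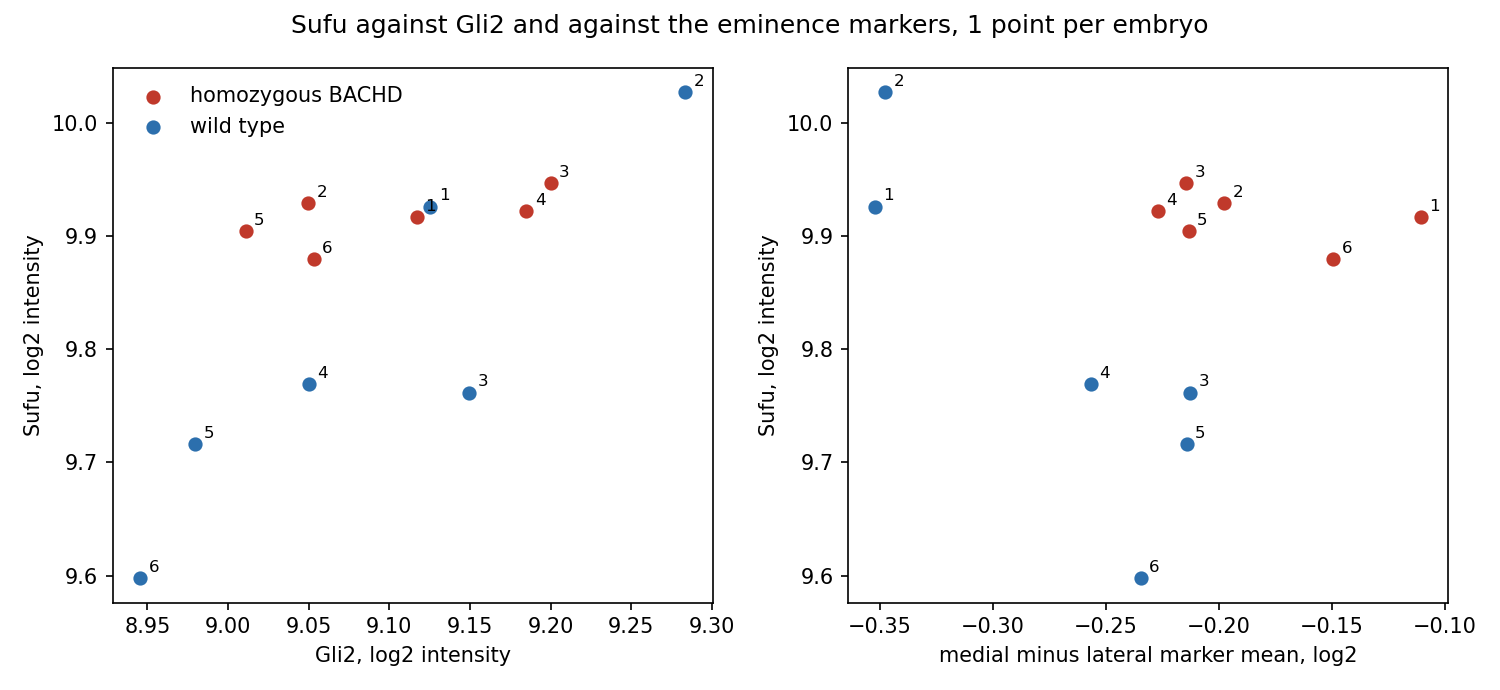
Log2 intensity of Sufu in each embryo against Gli2 (left panel) and against the balance of medial over lateral eminence markers (right panel), homozygous BACHD in red and wild type in blue, with replicate numbers. Wild type 1 and 2 lie at the left of the marker axis, at -0.35, and at the Sufu level of the homozygous embryos or above it; the other 4 wild-type embryos lie below all homozygous ones.

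Gli1, the target gene that serves as a usual readout of active signalling (probe set 10903035), differed by 0.097 ± 0.051 (log2, SE; 1.07-fold, 95% interval 0.992 to 1.15; adjusted p = 0.380 in limma, exact permutation p = 0.0823). Its lowest, median and highest log2 intensity were 8.78, 8.91 and 9.09 in homozygous embryos, against 8.73, 8.82 and 8.93 in wild-type embryos. Homozygous 2 and 3 lay above every wild-type embryo, and homozygous 6 lay near the bottom of the wild-type range. Without homozygous 2, the highest embryo, the difference was 0.062, and with centred arrays 0.059. Gli1 was the only 1 of the 6 genes with the larger SD in homozygous embryos, 0.104 against 0.0732 in wild-type embryos.

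Gli2, the main activator among the Gli factors in mice (probe set 10767077), had 9.01, 9.09 and 9.20 as its lowest, median and highest log2 intensity in homozygous embryos, against 8.95, 9.09 and 9.28 in wild-type embryos. The wild-type range enclosed the homozygous one, and the difference was 0.014 ± 0.056 (log2, SE; 1.01-fold, 95% interval 0.929 to 1.10; adjusted p = 0.922 in limma). Gli3, the main source of Gli repressor (probe set 10798706), had 10.68, 10.73 and 10.76 in homozygous embryos, against 10.54, 10.68 and 10.85 in wild-type embryos. Again the wild-type range enclosed the homozygous one, with wild type 3 highest and wild type 5 and 6 lowest. The Gli3 difference was 0.050 ± 0.044 (log2, SE; 1.04-fold, 95% interval 0.970 to 1.10; adjusted p = 0.598 in limma). It was 0.012 with centred arrays and, with 1 array left out, 0.024 without wild type 6, 0.032 without wild type 5 and 0.086 without wild type 3. Probe sets differ in how they bind, so levels were not compared between genes.

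The wild-type embryos spread more than the homozygous ones in 5 of the 6 genes. The SD of wild-type over that of homozygous embryos had a median ratio of 2.37 over the 6 and was 6.66 for Sufu. Over all probe sets the median ratio was 1.18 and the wild-type SD was the larger in 61.7%. These ratios are given as descriptions, and they include wild type 1 and 2.

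Across embryos, no relation between the ligand and its readout was detected. Of 12 pairs of genes set out for this, 3 could be measured, as deviations from the genotype mean over 12 embryos. For Shh and Gli1, r was 0.18 and rho 0.12 (permutation p = 0.545 and 0.724 from 100000 shuffles within genotype, adjusted p = 0.865 and 0.956 over the 3 pairs), and r was 0.072 without wild type 4 and 6, the embryos farthest from the median of Shh. Within genotypes r was 0.66 in homozygous embryos and -0.023 in wild-type embryos (n = 6 each), and the difference between these was not tested. For Shh and Nkx2-1 r was -0.079 and rho -0.070 (adjusted permutation p = 0.865 and 0.956). For Gli1 and Nkx2-1 r was 0.087 and rho -0.021 (adjusted permutation p = 0.865 and 0.956).

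Among all 15 pairs of the 6 genes, added after the values were seen, none passed when adjusted over the 15. The closest was Sufu with Gli2 (r = 0.81, rho = 0.70, permutation p = 0.00559 and 0.0227, adjusted p = 0.0838 and 0.1296). Wild type 2 was highest and wild type 6 lowest in both genes, and without these embryos r was 0.49 (permutation p = 0.158). It was 0.64 in homozygous and 0.90 in wild-type embryos, and 0.65 without wild type 1 and 2 (permutation p = 0.0553). Shh and Gli3 had r = 0.72 and rho = 0.69 (permutation p = 0.0556 and 0.0259, adjusted p = 0.417 and 0.1296). That r was 0.23 in homozygous and 0.79 in wild-type embryos, and 0.64 without wild type 4 and 6. Gli2 and Gli3 had r = 0.61 and rho = 0.73 (permutation p = 0.0861 and 0.0159, adjusted p = 0.431 and 0.1296), with r = 0.86 in homozygous and 0.58 in wild-type embryos. Without wild type 1 and 2 this r was 0.83 (adjusted permutation p = 0.0153 over the 15), the 1 pair to pass in that subset. The largest r in the subset was that of Shh and Sufu, 0.93 (adjusted permutation p = 0.0948), against 0.50 with all embryos. Over the 14506 genes, the gene whose deviations were most like those of Sufu was Pacc1 (r = 0.98 over 12 embryos), and for the other 5 it was Nectin2 with Shh (0.92), Pfdn1 with Smo (0.95), Pla2g1b with Gli1 (0.87), Tfap4 with Gli2 (0.94) and Tef with Gli3 (0.96). These were picked as the highest of many, after the values were seen.

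The other genes of the pathway were read from 6 lists by role, which held 49 measured genes beside the 6. None of the 49 passed in either direction in limma with all 12 arrays. In other settings Prkar1a passed most often. With centred arrays 3 of the 49 passed, all lower, Prkar1a, Spop and Ccnd2 (adjusted p = 0.0258 and 0.0486 in limma for Spop and Ccnd2). Centring lowered every difference by the same amount, so differences below 0 grew. Of all 29214 probe sets 302 passed with centred arrays. With array weights 2 of the 49 passed, Prkar1a and Btrc (adjusted p = 0.0451 in limma for Btrc), and 414 of all probe sets. Without wild type 1 and 2, 3 of the 49 passed, Prkar1a, Arrb2 (higher) and Csnk1a1 (lower), and 582 of all probe sets (1.99%). Arrb2 and Csnk1a1 were named after their values were seen. The fit with all 12 arrays and no other change had 124 probe sets past the threshold. At an unadjusted p below 0.05 there were 6 higher and 6 lower in homozygous embryos, against 10.2% higher and 4.81% lower of all probe sets. The median difference was 0.014. The groups did not overlap for 5 of the 49 (10.2%), where 1.86% of all probe sets did not overlap: Nkx2-1 and Btrc were higher and Prkar1a, Spop and Ccnd2 lower in homozygous embryos, the name of Spop being added after its values were seen. The lists were chosen with earlier results of these data known. Of the 49, 45 lay above the median level of all probe sets. The shares of the 49 and of all probe sets are thus not like for like, and no excess is read from them.

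**Figure D3:**
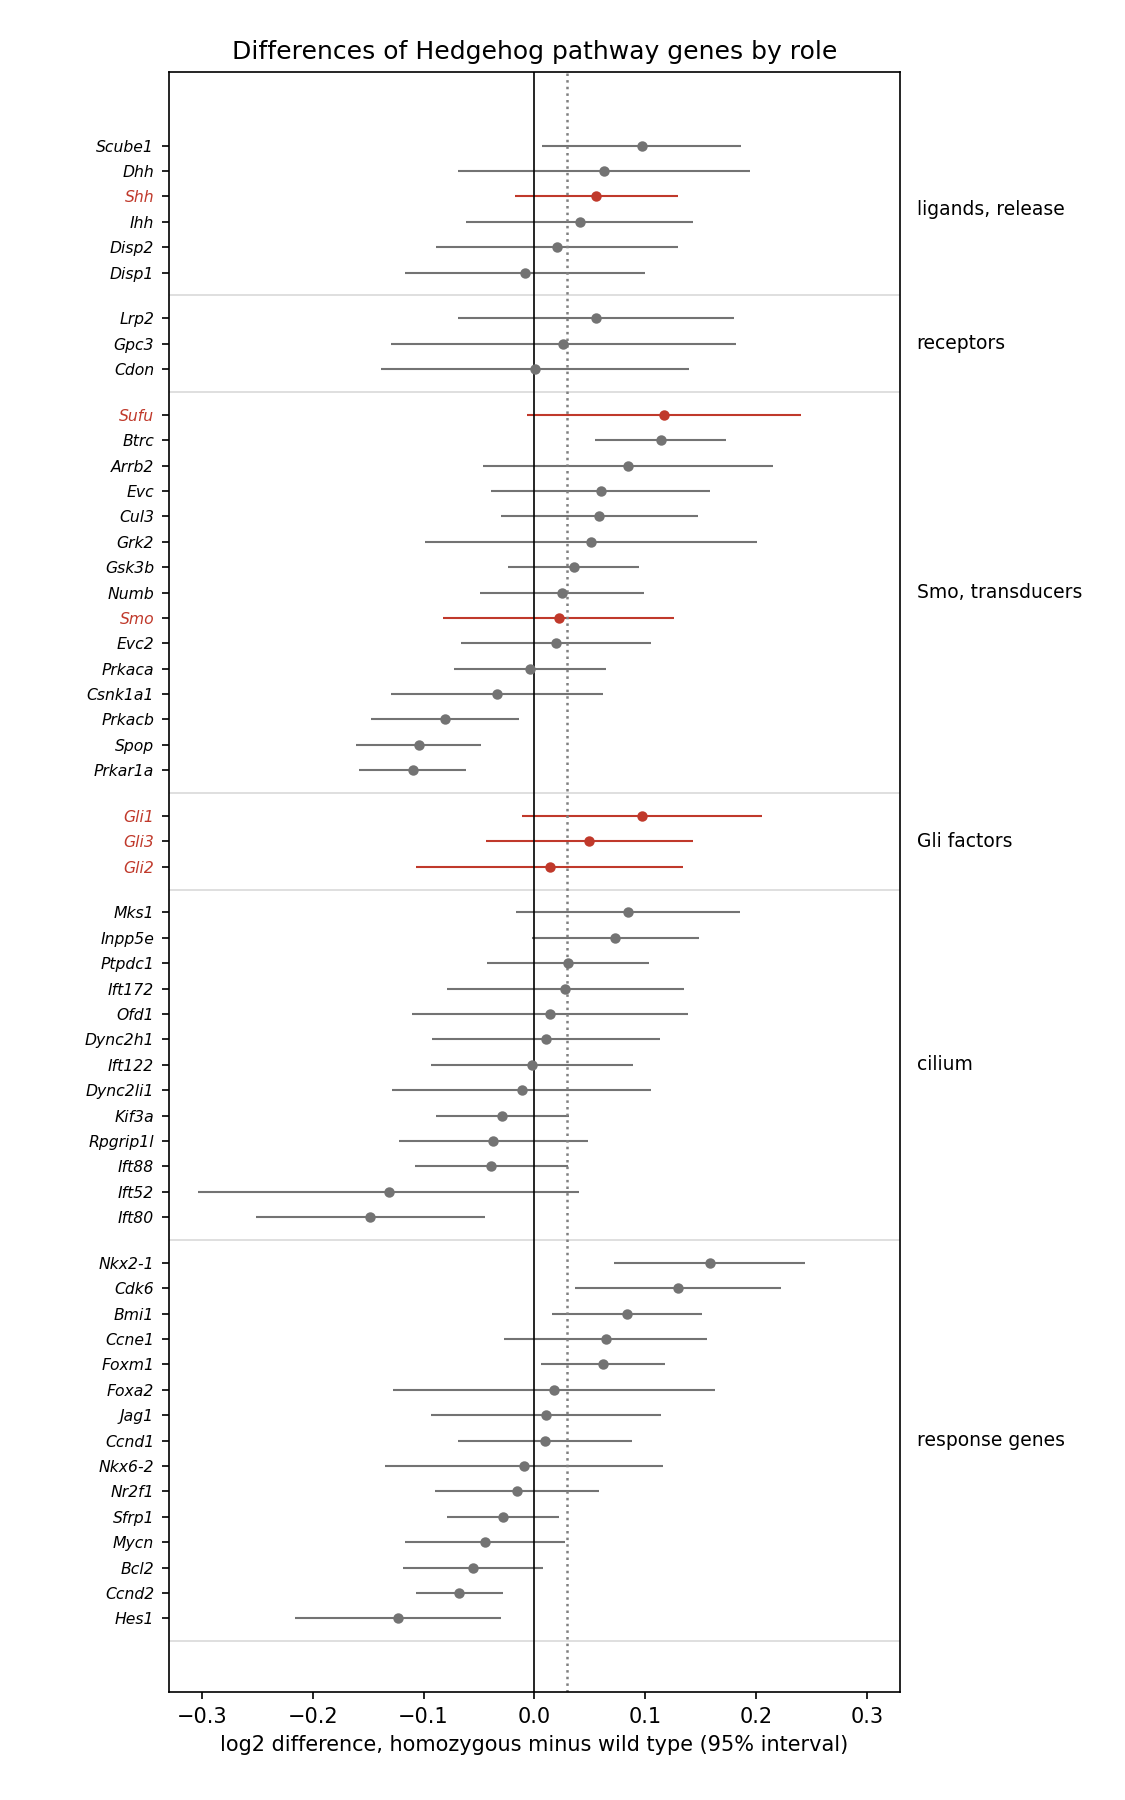
Log2 difference, homozygous minus wild type, of the 6 measured Hedgehog genes (red) and 49 other pathway genes (grey) in groups by role; points are limma estimates and bars 95% confidence intervals (n = 6 per group), the solid line is 0 and the dotted line the median of all probe sets (0.029). The red points lie between 0.014 and 0.12 and each red bar crosses 0.

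Among ligands and the genes that release them, 6 of 9 listed genes were measured and none passed. Beside Shh, the smallest p belonged to Scube1, related to a secreted protein that carries the ligand away from its source, at 0.097 ± 0.042 (log2 difference, SE; adjusted p = 0.2996 in limma). Among receptors, co-receptors and ligand traps 3 of 8 were measured, and none passed. Lrp2, an endocytic receptor that binds Shh in the forebrain of mice, stood at 0.056 ± 0.058, and Gpc3, a glypican that competes for the ligand, at 0.026 ± 0.073. Of 16 cilium genes 13 were measured and none passed, with Ift80, of the intraflagellar transport particle, at -0.15 ± 0.048 (adjusted p = 0.185 in limma) and Inpp5e, a lipid phosphatase of the cilium, at 0.073 ± 0.035.

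The transducers downstream of Smo, 15 of 19 measured with Smo and Sufu among them, included the pathway gene nearest to the threshold. Prkar1a, a regulatory subunit of protein kinase A, had 11.70, 11.76 and 11.80 as its lowest, median and highest log2 intensity in homozygous embryos, against 11.81, 11.87 and 11.88 in wild-type embryos. Every homozygous embryo lay below every wild-type embryo, by a difference of -0.11 ± 0.022 (log2, SE; 0.927-fold) with an adjusted p of 0.0516 in limma. It passed in 7 of 21 other settings, with an adjusted p from 0.0144 to 0.145. Btrc, of the ubiquitin ligase that leads to the cutting of Gli3, had 10.84, 10.90 and 10.94 in homozygous embryos, against 10.72, 10.79 and 10.83 in wild-type embryos (0.11 ± 0.028, adjusted p = 0.0914 in limma). Spop, the adaptor by which another ligase marks full-length Gli2 and Gli3 for destruction, had 9.70, 9.75 and 9.78 in homozygous embryos, against 9.82, 9.85 and 9.89 in wild-type embryos (-0.10 ± 0.026, adjusted p = 0.105 in limma).

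Genes known to respond to Hedgehog, 16 of 21 measured with Gli1 among them, did not share a direction. Of the 16, 9 lay above 0 and the median difference was 0.010. Nkx2-1 had 10.85, 10.91 and 10.96 as its lowest, median and highest log2 intensity in homozygous embryos, against 10.58, 10.76 and 10.85 in wild-type embryos. All 6 homozygous embryos lay above all 6 wild-type embryos, at 0.16 ± 0.040 (log2 difference, SE; 1.12-fold), but the adjusted p was 0.108 in limma. The marker balance, which counts Nkx2-1 itself, moved the same way, and with it as a covariate the difference was 0.074 (adjusted p = 0.407 in limma). Ccnd2, a cyclin that drives progenitors through the cell cycle, had 12.74, 12.77 and 12.80 in homozygous embryos, against 12.81, 12.84 and 12.87 in wild-type embryos (-0.068 ± 0.018, adjusted p = 0.120 in limma).

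**Figure D4:**
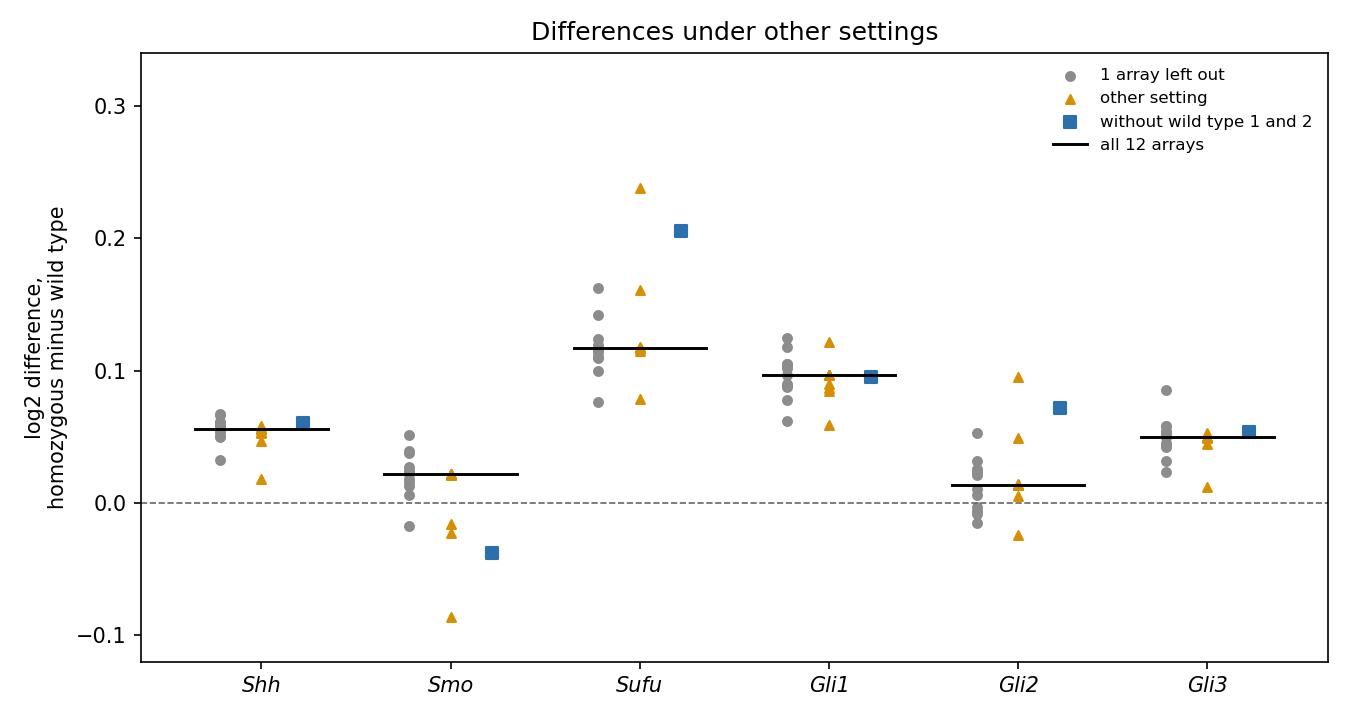
Log2 difference, homozygous minus wild type, of the 6 measured Hedgehog genes with all 12 arrays (black line), with 1 array left out (grey points), under other settings (orange triangles) and without wild type 1 and 2 (blue squares). Sufu moves most, to 0.21 without wild type 1 and 2 and to 0.24 with the marker covariate, while Smo and Gli2 fall on both sides of 0.

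Markers of other cells that a dissection could carry along were read in the same fit, and none of them passed. The smallest p belonged to Cdh5, a cadherin of endothelial junctions, at 0.15 ± 0.033 (log2 difference, SE; adjusted p = 0.0641 in limma), and the widest difference to Hbb, a globin of red blood cells, at -0.49 ± 0.147 (adjusted p = 0.155 in limma). Pallial markers (6 of 10 measured, all above the olfactory receptor level) had a median difference of -0.15. Of these 6, 3 were lower at an unadjusted p below 0.05 in limma, where 4.81% of all probe sets were. Neurod6 stood at -0.36 ± 0.105 (adjusted p = 0.145 in limma), and Emx2 alone lay above 0, at 0.078 ± 0.077. The summed linear level of the pallial markers was 4743 to 5361 in homozygous and 4630 to 6458 in wild-type embryos. The summed level of hypothalamic and other diencephalic markers, from regions that can also hold Shh-expressing cells, was 2514 to 3240 in homozygous and 2374 to 2927 in wild-type embryos (6 of 10 measured, Foxb1 at the olfactory receptor level). Of the 10 choroid plexus and roof plate markers 3 were higher at an unadjusted p below 0.05 (Ttr, Wnt3a and Msx1), where 10.2% of all probe sets were. Ttr and Msx1 lay below the brightest olfactory receptor gene (7.40) and above the median of the 53 (5.18). By the same cut on the unadjusted p, 2 of 8 endothelial markers were higher (Cdh5 and Pecam1) and 1 of 5 red blood cell markers was lower (Hbb). In the hypothalamic, microglia and meninges lists none was higher or lower. For choroid plexus and roof plate the sum was 1079 to 1254 in homozygous and 1031 to 1125 in wild-type embryos, and for endothelium (8 of 8 measured) 3162 to 3321 in homozygous and 3043 to 3441 in wild-type embryos. Microglia and macrophage markers (8 of 8 measured, Aif1 and Ptprc at the olfactory receptor level) summed to 1785 to 2118 in homozygous and 1818 to 2236 in wild-type embryos. For red blood cells (5 of 8 measured) the sum was 16149 to 17409 in homozygous and 16280 to 18462 in wild-type embryos. Most of it came from Hbe1 (mean log2 level 13.8 in each genotype), so Hbb hardly enters it. For meninges and mesenchyme (7 of 8 measured, Col3a1, Lum and Dcn at the olfactory receptor level) it was 1717 to 1827 in homozygous and 1601 to 1765 in wild-type embryos. The ranges of the 2 genotypes overlapped in each of these lists, and their part in the Hedgehog gene values was not tested.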

How the data were processed

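RNA from 1 embryo went on each of 12 arrays, after extraction (RNeasy Mini Kit) and labelling (Ambion WT Expression Kit), per the labels' protocols. The authors deposited log2 intensities for every probe set. Partek 6.4 and RMA appear in the submitters' processing notes with no settings. RMA tends to equalise arrays, so a change common to all genes would not show, and short probes make large differences look smaller.

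A single symbol was given by the platform annotation for 15310 probe sets, several for 323 and none for 13581. Of the 15310, 15279 matched RefSeq's GRCr8 table by Entrez number. Genotypes were taken from the labels. All 29214 probe sets entered 1 fit with genotype as factor in limma 3.58.1 (R 4.3.3; lmFit, eBayes with trend), with 2-sided p-values adjusted by Benjamini-Hochberg at 0.05. Single genes were also tested by exact permutation of embryos, where 6 against 6 can go no lower than p = 0.00216. Correlations used deviations from genotype means and 100000 shuffles. Both procedures were tested on simulated data with independent noise. The differences planted for limma were larger than those of the 6 genes, so they do not show how often differences of that size would be found. Arrays have no read depth; precision comes from their number, and the median standard error was 0.0576. Embryos of 1 dam may be alike, and the dam was not used here.

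The genes, lists and settings were chosen with earlier results of these data known. Named were the 6 measured genes and, per list, the 2 genes with the smallest p. Other settings were a replicate block, other scalings, no intensity trend, array weights, a filter on dim probe sets, left-out arrays and a covariate of eminence markers. Plots were made in Python 3.11.15 with matplotlib 3.10.9.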

Additional observations from a re-analysis of the deposited data

Results flagged for a closer look

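Of 32 groups of 6 embryos looked at (16 named genes in each genotype), 3 held an embryo far from the other 5, measured as its gap to the nearest embryo over the whole range of the group, against Dixon's limit for 6 values. Chance gives such an embryo in about 1 of 20 groups. Ift80 was low in homozygous 3 (8.853, next embryo 8.96, ratio 0.649). Lrp2 was low in wild type 1 (8.377, next embryo 8.57, ratio 0.766). Prkar1a was low in wild type 3 (11.81, next embryo 11.86, ratio 0.726), and without that embryo its difference was -0.12 with an adjusted p of 0.0372 in limma. None of the 6 measured Hedgehog genes held such an embryo in either genotype.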

How the results depend on the processing

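Of 132 values of the 6 Hedgehog genes under 22 other settings, 1 passed, Sufu without wild type 1 and 2 (0.21, adjusted p = 0.0140 in limma), so that 1 of the 6 genes passed there and 0 in the 21 others, each left-out array included. Shh, Sufu, Gli1 and Gli3 stayed above 0 in all 22, at 0.018, 0.079, 0.059 and 0.012 with centred arrays. With 1 array left out Shh ranged from 0.032 to 0.067, Smo from -0.017 to 0.051, Sufu from 0.076 to 0.16, Gli1 from 0.062 to 0.13, Gli2 from -0.015 to 0.053 and Gli3 from 0.024 to 0.086. Smo also turned below 0 with arrays centred on their medians (-0.016), array weights (-0.022), without wild type 1 and 2 (-0.038) and with the marker covariate (-0.086), and Gli2 with centred arrays (-0.024). Centring lowered every difference by the same amount, since array medians were on average higher in homozygous arrays. Why the direction turned in the other settings was not tested. The other pathway genes followed through the settings were Scube1, Lrp2, Gpc3, Prkar1a, Btrc, Spop, Ift80, Inpp5e, Nkx2-1 and Ccnd2. Of these, Lrp2 turned with the marker covariate (-0.031). Gpc3 turned with centred arrays (-0.012) and with 1 array left out (-0.0055 to 0.073). The remaining pathway genes were not followed for direction. Any whose difference lay above 0 but below that of Gpc3 (0.026), such as Cdon (0.000385), would also turn with centring. The number of probe sets past the threshold, 124, was 18 with the replicate number as a block, 302 with centred arrays, 3 without an intensity trend, 414 with array weights, 255 for probe sets above the median level, 582 without wild type 1 and 2, and 4 to 200 with 1 array left out. The replicate numbers share nothing in the labels: deviations of same-numbered embryos correlated with r from -0.082 to 0.26, and 3 of 12 arrays correlated best with their own number. No Hedgehog gene passed with the block. The correlation of Shh and Gli1 was 0.66 in homozygous embryos alone and -0.023 in wild-type embryos alone. That of Shh and Nkx2-1 was 0.13 without the 2 farthest embryos, 0.097 with centred arrays and 0.22 in homozygous embryos alone, and rho of Gli1 and Nkx2-1 was -0.021. Without wild type 1 and 2, Smo with Sufu had r = 0.52 and Smo with Gli2 r = 0.54, where all embryos gave -0.57 and -0.33.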
